A study of Mus musculus with 9 samples.

Results

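Messenger RNA in mouse ear skin was compared between 3 arrays taken 6 h after the allergen DNFB and 3 arrays taken 6 h after the vehicle, which are 6 of the 9 arrays of the series. All arrays of these treatments were used, chosen by their labels, and every gene with a named probe set was considered. The tissue was ear skin of C57BL/6 mice. DNFB (2,4-dinitrofluorobenzene), a reactive hapten that binds to proteins, was put on right ears, while left ears had acetone and olive oil, the vehicle, so the side of the ear and the compound cannot be told apart. The other 3 arrays came from right ears given BAC, which the labels call a skin irritant, for the same 6 h. They entered the fit to estimate the spread between arrays and are set beside DNFB where the 2 compounds differed. No dose is stated for either compound in the labels read here. Replicates carry numbers, but nothing ties each one to its own animal, so the p-values reflect the spread of these arrays only, and part of that spread may be technical. In bulk skin, fewer cells of a type and less RNA per cell cannot be told apart.

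A contact allergen of this kind reacts with thiol and amino groups of skin proteins. Cells sense such electrophiles through KEAP1, whose modified cysteines release the transcription factor NRF2, and through unfolded proteins, which free the heat shock factor HSF1. Keratinocytes, Langerhans cells and mast cells then release cytokines and chemokines that recruit neutrophils and monocytes and start sensitisation.

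After DNFB 19 of 39 cytosolic chaperone genes, 19 of 35 immediate early genes, 13 of 28 chemokine genes and 10 of 14 neutrophil markers rose, and so did genes of haem breakdown and glutathione synthesis such as Hmox1 and Gclm. Of 35 cornified envelope genes 24 fell, as did 11 of 19 epidermal keratins, 15 of 23 epidermal proteases and their inhibitors and 20 of 35 genes of epidermal lipids. Of 14122 genes tested with limma, 1955 passed at an adjusted threshold of 0.05, or 13.8%: 955 were higher (6.76%) and 1000 lower (7.08%). Of these, 240 and 205 changed by at least 2-fold, and 35 and 4 by at least 4-fold. All 3 DNFB arrays lay above all 3 vehicle arrays in 2149 genes (15.2%) and below them in 2208 (15.6%). The count of genes that passed was 1276 without vehicle replicate 1 and 1249 without vehicle replicate 3. It was 1437 without DNFB replicate 2, the array in which the Gapdh control probes at the 3' end read highest relative to those at the 5' end, as they do in partly degraded RNA. That ratio was 0.841, 1.36 and 0.943 in the DNFB arrays beside 0.856 to 0.88 in the vehicle arrays. In the BAC arrays it was 0.917 to 0.932. The same ratio of the actin control probes was 1.09, 1.28 and 1.23 in the DNFB arrays. It was 1.05 to 1.1 in the vehicle arrays and 1.18 to 1.22 in the BAC arrays. By actin, DNFB replicates 2 and 3 and all BAC arrays lay above every vehicle array. The part of these ratios in the changes was not tested. Without the intensity trend in the variance the count was 1202. With each array centred on its median over the tested genes, 1235 genes were higher and 816 lower, so that 60.2% of calls were higher beside 48.8% in the deposited scaling. Centring on each array's median before the filter on low signals moved the split the other way, to 621 higher and 796 lower, or 43.8% higher. The median log2 change of all tested genes was 0.002 in the deposited scaling. It was 0.067 with centring over the tested genes and -0.01 with centring before the filter.

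**Figure D1:**
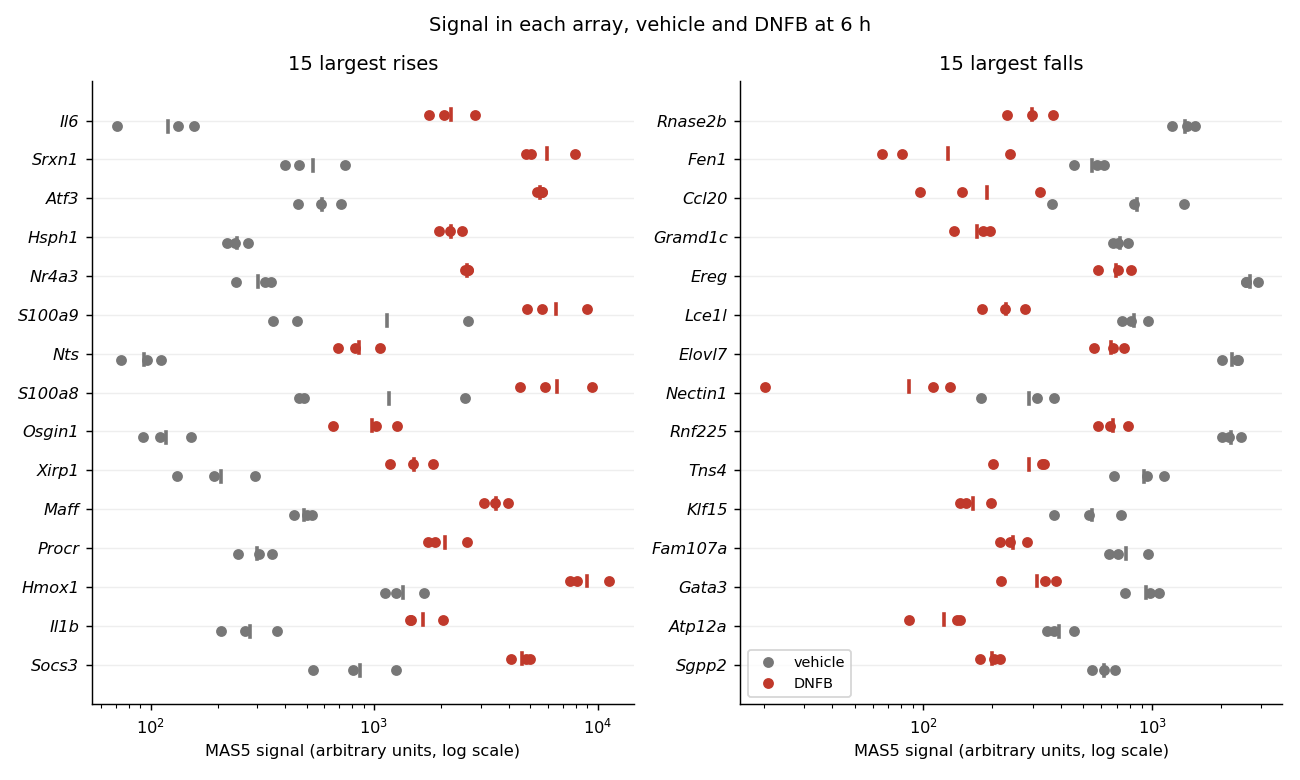
MAS5 signal on a log axis in each vehicle (grey) and DNFB (red) array for the 15 largest rises (left) and the 15 largest falls (right); points are arrays and bars the group mean. In none of the 30 genes, which were chosen for this, do the points of the 2 groups overlap, and the vehicle point of S100a9 at 2633 stands away from the other vehicle points at 451 and 352.

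Genes named below follow a rule on the size of the change, given with the methods. A signal is the deposited MAS5 intensity, scaled by the authors to a common trimmed mean of 250.001 in each array, and can be compared between arrays but not between genes. Log2 changes are DNFB minus vehicle on the log2(signal + 16) scale with their standard error (SE), and adjusted p-values are limma's over all 14122 genes. The lists held 1899 genes, of which 1719 had a named probe set and 1603 were tested. Of the 55 counts of 1 to 3 members in 1 direction, 34 moved by over 1.5 times with 1 array left out or another setting, so such small counts are descriptions only.

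To set the changes beside sequence, the 250 bases before the start of each gene in the RefSeq promoter table (GRCm38.p6) were searched on both strands for TGACNNNGC, the core of the antioxidant response element read by NRF2, and for GAANNTTC, the core of the heat shock element read by HSF1. The first occurred in 10.2% of all 32851 windows and the second in 6.69%. Among tested genes with a window, 13.7% held the first motif, beside 17.2% of the genes higher after DNFB, 19.7% of those higher by at least 2-fold and 14.4% of the lower genes. The second motif was in 6.3% of tested genes with a window, 6.78% of the higher genes, 8.74% of those higher by at least 2-fold and 4.45% of the lower ones. Of 34 cytosolic chaperone and co-chaperone genes with a window, 11 (32.4%) held the heat shock motif. Of 14 regulators of the KEAP1 and NRF2 system with a window, 4 (28.6%) held the antioxidant motif. Among the enzymes the share was 2 of 22 thioredoxin and quinone reductase genes (9.09%), 2 of 12 haem and iron genes (16.7%), 3 of 14 glutathione synthesis genes (21.4%), 4 of 20 glutathione transferase and export genes (20%) and 0 of 15 NADPH supply genes. The antioxidant motif was as frequent in lists with other roles, such as 5 of 14 glucocorticoid-responsive genes (35.7%). It can overlap the AP-1 site TGANTCA, which shares its first letters. These shares describe letters only and were not tested. Below are windows of strongly raised genes that hold a match, with the match in capitals; the first 3 show the antioxidant motif and the last the heat shock motif. The window of Hsph1, a chaperone of the Hsp110 family, is at chr5:149636316-149636565 on the minus strand, that of Maff, a small MAF protein that pairs with NRF2, at chr15:79346371-79346620 on the plus strand, that of Procr, the endothelial protein C receptor, at chr2:155750967-155751216 on the plus strand, and that of Hspa1a, the inducible Hsp70, at chr17:34972157-34972406 on the minus strand. These are the genes with the largest rises that hold each motif, with some left out. Each ends at the base before the start site.
Hsph1: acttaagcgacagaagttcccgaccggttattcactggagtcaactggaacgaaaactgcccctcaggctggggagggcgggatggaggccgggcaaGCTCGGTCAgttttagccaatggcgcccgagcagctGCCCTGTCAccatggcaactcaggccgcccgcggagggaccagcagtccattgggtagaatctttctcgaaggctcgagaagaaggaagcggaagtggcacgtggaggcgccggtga
Maff: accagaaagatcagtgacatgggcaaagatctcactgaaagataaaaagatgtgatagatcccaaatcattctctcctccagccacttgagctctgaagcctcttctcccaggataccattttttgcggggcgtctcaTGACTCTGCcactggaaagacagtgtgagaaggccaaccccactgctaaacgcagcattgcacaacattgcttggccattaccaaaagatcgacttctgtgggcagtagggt
Procr: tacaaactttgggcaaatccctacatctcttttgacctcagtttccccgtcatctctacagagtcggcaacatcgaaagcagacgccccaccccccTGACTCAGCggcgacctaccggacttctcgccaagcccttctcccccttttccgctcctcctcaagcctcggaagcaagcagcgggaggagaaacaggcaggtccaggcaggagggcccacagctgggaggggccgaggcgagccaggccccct
Hspa1a: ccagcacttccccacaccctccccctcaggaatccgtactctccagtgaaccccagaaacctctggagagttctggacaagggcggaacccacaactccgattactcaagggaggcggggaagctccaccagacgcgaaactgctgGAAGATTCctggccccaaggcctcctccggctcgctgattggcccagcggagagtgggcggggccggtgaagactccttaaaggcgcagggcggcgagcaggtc
The matches begin 153 and 117 bases before the start in Hsph1, 112 in Maff, 154 in Procr and 104 in Hspa1a. Hsph1 has a further window, shifted along the same stretch, with the same matches, and Nr4a3 holds the antioxidant motif and Clec4d, Jun and Asb5 the heat shock motif. The printed Hsph1 window also holds ttctcgaa, which is unmarked because its arrangement was not searched.

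Among the regulators of the KEAP1 and NRF2 system 6 of 15 tested members rose and 2 fell (median log2 change 0.41), with 1 lower without vehicle replicate 1, vehicle replicate 3 or DNFB replicate 2. The small MAF proteins, which form the dimers through which NRF2 binds DNA, had 2 members among those that rose. Maff (Entrez gene 17133) read 499, 526 and 437 in the vehicle arrays and 3967, 3092 and 3491 in the DNFB arrays. All DNFB arrays were several times above all vehicle arrays, a log2 change of 2.81 ± 0.12 (adjusted p = 1.29e-09). Mafk (Entrez gene 17135) went from 649, 658 and 475 to 1911, 1847 and 2024, again without overlap (1.69 ± 0.14, adjusted p = 1.22e-06). Osgin1, an NRF2-dependent growth inhibitor, read 92.7, 151 and 110 in vehicle skin and 1268, 654 and 1019 after DNFB, with replicate 2 the lowest DNFB array (2.87 ± 0.21, adjusted p = 4.03e-07). Sqstm1, the autophagy receptor p62 that holds KEAP1, rose by 1.24 ± 0.10 (adjusted p = 1.22e-06). Of the members that fell, Rbx1, a subunit of the ubiquitin ligase that KEAP1 serves, is uncertain: 2 of its 3 DNFB arrays, at 51.5 and 5.54, lay below the 40th percentile of their array. Its change of -1.70 ± 0.45 (adjusted p = 0.0193) lost its call with any 1 of vehicle replicate 1, vehicle replicate 3 and DNFB replicate 2 left out, where the adjusted p reached 0.0998.

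Only part of each list of enzymes for haem breakdown, glutathione synthesis, thiol reduction and NADPH supply rose. Hmox1 (Entrez gene 15368), haem oxygenase 1, read 1119, 1673 and 1260 in vehicle skin and 11293, 8075 and 7530 after DNFB. The groups lay far apart, a 6.56-fold difference (log2 change 2.71 ± 0.16, adjusted p = 4.13e-08). Blvrb, a biliverdin reductase that acts on the product of haem oxygenase, read 601, 814 and 605 and then 1154, 1123 and 1080, also without overlap (0.73 ± 0.13, adjusted p = 0.00144). Of 18 haem and iron genes 6 rose and 2 fell (median 0.06). The number that rose was 2 without vehicle replicate 3 or DNFB replicate 2 and 3 without DNFB replicate 1. It was also 2 without the intensity trend and 3 with averaged probe sets.

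Both subunits of glutamate-cysteine ligase, the rate-limiting enzyme of glutathione synthesis, rose. The modifier subunit Gclm (Entrez gene 14630) read 604, 547 and 600 in vehicle skin and 2744, 1750 and 2128 after DNFB (1.87 ± 0.16, adjusted p = 1.22e-06). The catalytic subunit Gclc (Entrez gene 14629) read 618, 525 and 472 and then 1295, 1072 and 1311 (1.17 ± 0.13, adjusted p = 2.68e-05). In both genes every DNFB array was above every vehicle array. The list of glutathione synthesis and recycling had 6 of 18 members higher and 2 lower, with a median of 0.34. Slc7a11, the cystine carrier xCT, was low: 2 of its 3 vehicle arrays were below the 40th percentile, and its log2 change of 1.39 ± 0.37 (adjusted p = 0.0219) lost its call with any 1 of vehicle replicate 1, vehicle replicate 3 and DNFB replicate 1 left out, where the adjusted p reached 0.113. Among glutathione transferases and conjugate exporters 4 of 25 rose and 1 fell, and the number that rose was 2 without vehicle replicate 3, DNFB replicate 2, DNFB replicate 3 or the intensity trend. Gstp1, the Pi class transferase, was the steadiest of them, with 2716, 2771 and 2438 in vehicle skin and 5270, 5222 and 5086 after DNFB. That is close to a doubling, a log2 change of 0.97 ± 0.09 (adjusted p = 4.98e-06).

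In the thioredoxin and quinone reductase list 7 of 22 members rose and 2 fell, with a median of 0.28. With averaged probe sets 4 rose. The number that fell was 0 without vehicle replicate 1 or DNFB replicate 3, and 1 with any other vehicle or DNFB array left out. Txnrd1, the cytosolic thioredoxin reductase, read 1198, 1601 and 1301 in vehicle skin and 6212, 4899 and 5404 after DNFB (2.0 ± 0.13, adjusted p = 8.61e-08). Neither of its 2 further tested probe sets passed, so the change rests on 1 probe set. Nqo1, a quinone reductase, read 308, 307 and 219 and then 554, 475 and 411, a smaller difference without overlap (0.76 ± 0.17, adjusted p = 0.006). Pgd, an NADPH-producing enzyme of the pentose phosphate pathway, went from 1260, 1336 and 1165 to 2697, 2149 and 2007 (0.85 ± 0.12, adjusted p = 0.000218), and its 3 other tested probe sets passed in the same direction. Of 15 genes of NADPH supply, 3 rose and none fell (median 0.09). Besides Pgd these were the folate enzymes Mthfd2 and Shmt1, and Shmt1 was at -0.23 with averaged probe sets.

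Part of these genes also differed between the 2 compounds. Against the BAC arrays 444 of 14122 genes were higher after DNFB (3.14%) and 517 lower (3.66%), 961 in all. That count was 608 without DNFB replicate 2, 571 without DNFB replicate 3, 513 without BAC replicate 2 and 402 without the intensity trend. Of the 22 thioredoxin and quinone reductase genes 8 were higher after DNFB than after BAC and none lower, of the 25 glutathione transferase and export genes 5 and none, and of the 18 glutathione synthesis genes 4 and 1. Of the 18 haem and iron genes 3 were higher and 2 lower, of the 15 regulators 4 and 1, and of the 15 NADPH supply genes 1 and none. Other genes that rose after DNFB went against this or did not pass. Chac1, which degrades glutathione, Lcn2, which binds iron-carrying siderophores, and Slc39a14, a zinc and iron importer, differed from BAC by -0.96 ± 0.23, -1.12 ± 0.23 and -0.93 ± 0.16 (adjusted p of 0.0188, 0.0085 and 0.00268). Against the vehicle the call of Lcn2 was lost with vehicle replicate 3, DNFB replicate 2 or DNFB replicate 3 left out (adjusted p up to 0.111), and that of Slc39a14 with vehicle replicate 3, DNFB replicate 1 or DNFB replicate 2 left out (up to 0.0872), while averaged probe sets put Slc39a14 at -0.006. For Slc7a11 and Mthfd2, a mitochondrial folate enzyme, the differences from BAC of 0.67 ± 0.37 and 0.10 ± 0.22 did not pass (adjusted p of 0.327 and 0.831). Hmox1 read 1332, 1374 and 1165 in the BAC arrays, within the range of the vehicle arrays, and the DNFB arrays were higher by 2.76 ± 0.16 (adjusted p = 1.6e-07). Gclc read 347, 329 and 312 after BAC, below every vehicle array, and differed by 1.84 ± 0.13 (adjusted p = 8.61e-07). Gclm differed by 2.41 ± 0.16 (adjusted p = 4.24e-07), Gstp1 by 1.04 ± 0.09 (adjusted p = 5.87e-06), Nqo1 by 1.11 ± 0.17 (adjusted p = 0.000683) and Pgd by 0.91 ± 0.12 (adjusted p = 0.000257). For Maff the BAC arrays at 1434, 1207 and 1408 lay between the vehicle and the DNFB arrays, and the difference between the compounds was 1.37 ± 0.12 (adjusted p = 5.87e-06).

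**Figure D2:**
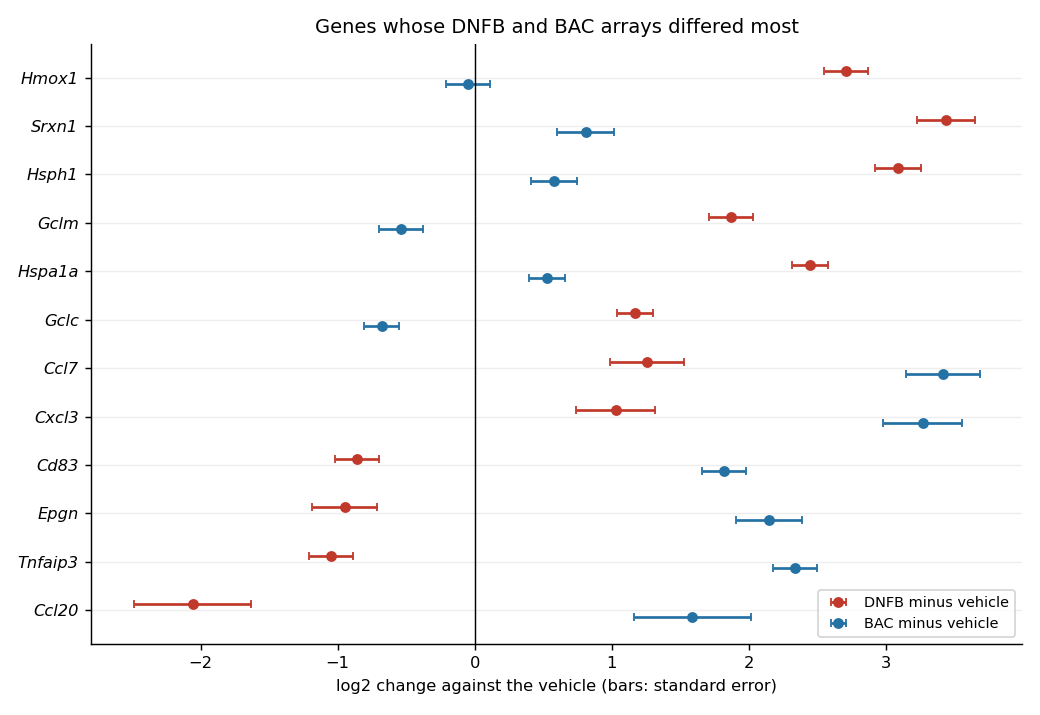
Log2 change against the vehicle after DNFB (red) and after BAC (blue), with standard errors, for the 6 genes highest and the 6 lowest in DNFB relative to BAC among genes that passed in DNFB against vehicle. Hmox1 is at 2.71 after DNFB and -0.05 after BAC, while Tnfaip3 is at -1.05 after DNFB and 2.34 after BAC; both changes use the same vehicle arrays.

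Protein folding genes of the cytosol formed the list with the third highest share of rises among the pathway lists, after the immediate early genes and the AP-1 subunits: 19 of 39 chaperone and co-chaperone genes rose and 1 fell, with a median of 0.45. Hspa1a (Entrez gene 193740) read 973, 1126 and 1029 in vehicle skin and 5352, 5339 and 6615 after DNFB (2.45 ± 0.13, adjusted p = 1.38e-08). Probe sets of near-identical genes such as Hspa1a and Hspa1b can bind the same RNA, so the 2 are uncertain as separate genes. Dnajb1, the Hsp40 partner of Hsp70, went from 2035, 1850 and 1663 to 6257, 5326 and 5959 (1.65 ± 0.11, adjusted p = 2e-07), and Bag3, a co-chaperone that passes clients to autophagy, from 1198, 1016 and 1454 to 3503, 3905 and 3266 (1.54 ± 0.13, adjusted p = 1.22e-06). In these genes the groups were well apart, and for Hspa1a, Dnajb1 and Bag3 the DNFB arrays were also above the BAC arrays, by 1.92 ± 0.13, 0.93 ± 0.11 and 0.74 ± 0.13 (adjusted p of 4.24e-07, 0.0001 and 0.00248). In all, 11 of the 39 were higher after DNFB than after BAC and 1 lower. Of other protein-handling genes, 2 of 14 chaperonin and prefoldin subunits, 2 of 32 proteasome subunits and 2 of 20 ubiquitin and autophagy genes rose and none fell. The proteasome share of 6.25% was below the 6.76% over all tested genes. No chaperonin or proteasome subunit passed without vehicle replicate 1, vehicle replicate 3 or DNFB replicate 1 and no chaperonin subunit without DNFB replicate 2, while 6 proteasome and 4 chaperonin subunits rose without vehicle replicate 2. Sqstm1 and Gabarapl1, an autophagosome protein (0.79 ± 0.13, adjusted p = 0.000528), were the 2 autophagy genes.

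In the endoplasmic reticulum 6 of 31 chaperones and sensors rose and none fell (median 0.15). Dnajb9, a co-chaperone of the lumen, read 1736, 1697 and 1412 in vehicle skin and 5142, 4705 and 4142 after DNFB (1.52 ± 0.12, adjusted p = 7.74e-07). Hspa5, the lumenal Hsp70 called BiP, read 4887, 5810 and 4579 and then 15354, 13529 and 12598 (1.44 ± 0.13, adjusted p = 1.77e-06). Both were without overlap, and Dnajb9 was also above the BAC arrays by 1.06 ± 0.12 (adjusted p = 5e-05). Creld2 and Manf, 2 secreted proteins of the endoplasmic reticulum stress response, rose by 0.93 ± 0.16 (adjusted p = 0.00111) and 0.75 ± 0.14 (adjusted p = 0.00169).

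Of 33 genes of the integrated stress response and amino acid supply, 15 rose and 2 fell, with a median of 0.48, and 9 rose without the intensity trend. Ppp1r15a, which directs a phosphatase to the translation factor eIF2alpha, read 884, 978 and 677 in vehicle skin, 4245, 4486 and 5149 after DNFB and 1882, 1431 and 1823 after BAC. The 3 groups did not overlap, and DNFB was above BAC by 1.43 ± 0.14 (adjusted p = 1.8e-05). The list as a whole was not set apart in this way. After BAC 13 of the 33 rose and 1 fell against the vehicle (median 0.43). Between the compounds 3 were higher after DNFB and 3 lower. Ddit3, the factor CHOP, went from 243, 261 and 187 to 1091, 1059 and 985 (2.12 ± 0.20, adjusted p = 3.52e-06). Ddit4, an inhibitor of mTORC1 signalling that is also listed with glucocorticoid-responsive and p53 genes, moved the other way, from 2696, 1841 and 2107 to 798, 1056 and 889 (-1.25 ± 0.14, adjusted p = 2.36e-05). Every DNFB array of Ddit4 was below every vehicle array. Among cytosolic tRNA synthetases, which charge tRNA with amino acids, 9 of 21 rose and 1 fell, with a median of 0.35. The number that rose was 5 without vehicle replicate 1, vehicle replicate 3, DNFB replicate 1 or the intensity trend. The 3 with the largest changes were Aars for alanine (1.36 ± 0.19, adjusted p = 0.000208), Yars for tyrosine (1.06 ± 0.21, adjusted p = 0.00268) and Eprs for glutamate and proline (1.03 ± 0.13, adjusted p = 5.27e-05).

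Immediate early transcription factors, which are made within minutes of a stimulus, rose broadly. Of 35 genes of the EGR, IER and related families 19 rose and 3 fell (median 0.66), and of 15 AP-1 subunits 8 rose and 2 fell (median 0.58). Nr4a3 (Entrez gene 18124), an orphan nuclear receptor, read 346, 324 and 242 in vehicle skin and 2635, 2557 and 2620 after DNFB. Relative to their mean, its DNFB arrays lay closest together among the 15 genes with the largest rises (log2 change 3.05). Its paralogue Nr4a2 went from 516, 349 and 362 to 1377, 1774 and 1847 (1.99 ± 0.20, adjusted p = 8.01e-06). Fosl1, the AP-1 subunit FRA-1, went from 570, 678 and 545 to 2724, 1826 and 2417 (1.92 ± 0.14, adjusted p = 4.36e-07). Nr4a2 and Fosl1 differed from BAC by 0.42 ± 0.20 and 0.05 ± 0.14, which did not pass (adjusted p of 0.236 and 0.889). Jun, whose promoter holds a heat shock motif, read 2040, 1640 and 2104 and then 5818, 5389 and 6683 (1.62 ± 0.13, adjusted p = 8.55e-07), but 12672, 9438 and 11371 after BAC, above every DNFB array (difference -0.90 ± 0.13, adjusted p = 0.000485). Of the 35 EGR and IER genes 14 were lower after DNFB than after BAC and none higher.

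Feedback inhibitors of the kinases upstream split, 5 of 17 rising and 3 falling. The number that rose was 2 without vehicle replicate 2, DNFB replicate 1 or the intensity trend and 3 without DNFB replicate 2, with median centring or with averaged probe sets. Errfi1, an inhibitor of the EGF receptor, rose by 1.43 ± 0.11 (adjusted p = 8.86e-07), while Dusp14, a MAP kinase phosphatase, fell by 0.98 ± 0.18 (adjusted p = 0.00139). Dusp7, an ERK phosphatase, read 599, 532 and 646 in vehicle skin, 279, 83.2 and 326 after DNFB and 703, 683 and 654 after BAC. DNFB replicate 2 was by far the lowest, and the change was -1.49 ± 0.32 (adjusted p = 0.00486), which did not pass without the intensity trend (adjusted p = 0.0537).

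Among the Kruppel-like factors 3 of 14 rose and 3 fell, with 5 lower without vehicle replicate 2 or with the replicate number as a block. Klf15, a factor of the glucocorticoid response, read 733, 528 and 373 in vehicle skin and 144, 197 and 154 after DNFB, a fall of 1.59 on the log2 scale (SE 0.22, adjusted p = 0.000151). Zbtb16, a zinc finger factor induced by glucocorticoids, read 1317, 996 and 1126 and then 441, 503 and 530 (-1.19 ± 0.18, adjusted p = 0.000354). It was at 1499, 987 and 812 after BAC, and DNFB minus BAC was -1.09 ± 0.18 (adjusted p = 0.00169). The list of 20 glucocorticoid-responsive genes had 4 higher and 4 lower against the vehicle, with 2 higher than the vehicle without DNFB replicate 2 or the intensity trend. Against BAC 8 of the 20 were lower after DNFB and none higher. Of 18 clock genes 7 fell and 3 rose, and 3 fell without vehicle replicate 1 and 4 without vehicle replicate 2 or DNFB replicate 2. With either centring 4 fell and without the intensity trend 3. The output factors Hlf and Dbp fell by 1.04 ± 0.20 (adjusted p = 0.00226) and 0.96 ± 0.20 (adjusted p = 0.00391), and the repressors Bhlhe40 and Nfil3 rose by 1.41 ± 0.15 (adjusted p = 1.66e-05) and 1.99 ± 0.18 (adjusted p = 2.49e-06). The hour at which each ear was taken is not stated in the labels read here.

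Among secreted signals 7 of 28 tested interleukin and colony-stimulating factor genes rose and 5 fell, with a median of 0.38. The number that rose was 4 without DNFB replicate 1, and the number that fell was 3 without vehicle replicate 1, vehicle replicate 3, DNFB replicate 2, DNFB replicate 3, the intensity trend or the filter, or with averaged probe sets. Il6 (Entrez gene 16193), the cytokine of the acute phase, read 157, 133 and 70.5 in vehicle skin, 2842, 2058 and 1753 after DNFB and 4834, 5498 and 5488 after BAC. The 3 groups did not overlap. Il1b (Entrez gene 16176), interleukin-1 beta, read 264, 368 and 207, then 1468, 1451 and 2028, and 4630, 5332 and 5532 after BAC, in the same order. DNFB minus BAC was -1.27 ± 0.21 for Il6 (adjusted p = 0.00191) and -1.65 ± 0.18 for Il1b (adjusted p = 2.81e-05). Il33, an alarmin stored in nuclei of epithelial cells, read 461, 495 and 533 and then 875, 772 and 781 (0.69 ± 0.15, adjusted p = 0.00495). Tslp, another epithelial alarmin, read 43.9, 58.2 and 24.5 in vehicle skin and 13.9, 34.4 and 46.8 after DNFB, near or below the 40th percentile, and did not pass (-0.31 ± 0.41, adjusted p = 0.698). Tnf did not pass either: all of its DNFB arrays, at 19.7, 15.6 and 48.5, were below that percentile. Ptgs2, the inducible cyclooxygenase, overlapped, with 538, 367 and 256 beside 653, 402 and 453 (0.39 ± 0.22, adjusted p = 0.289). Il1a, interleukin-1 alpha, was lower after DNFB. Its log2 change lay between -2.02 and -0.95 with 1 vehicle or DNFB array left out. The call of Il1a was lost without any 1 vehicle replicate, DNFB replicate 2 or DNFB replicate 3 (limma adjusted p up to 0.124).

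Of the 33 receptors 10 were higher and 8 lower (median -0.06). The number that fell was 4 without vehicle replicate 3 and 5 without vehicle replicate 1 or DNFB replicate 2 or with averaged probe sets. Csf3r, through which neutrophils sense granulocyte colony-stimulating factor, read 94.8, 88.1 and 70.7 in vehicle skin and 361, 372 and 671 after DNFB (2.22 ± 0.21, adjusted p = 4.15e-06). Il22ra1, the interleukin-22 receptor of keratinocytes, went the other way, from 223, 220 and 240 to 46.9, 76.8 and 108 (-1.44 ± 0.26, adjusted p = 0.00164), with 1 DNFB array below the 40th percentile. 

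Of 28 chemokine genes 13 rose and 1 fell, with a median of 0.40 and 8 higher without the intensity trend, and 14 were lower after DNFB than after BAC with none higher. Cxcl1 (Entrez gene 14825), a neutrophil attractant, read 653, 888 and 319 in vehicle skin, 3741, 3261 and 2598 after DNFB and 5721, 6391 and 6413 after BAC. Ccl2, a monocyte attractant, read 627, 524 and 335, then 1643, 1282 and 1106, and 3309, 4728 and 5563 after BAC. For both genes DNFB lay between the vehicle and BAC without overlap; DNFB differed from BAC by -0.96 ± 0.25 (adjusted p = 0.0317) and -1.73 ± 0.22 (adjusted p = 0.000131). Ccl20, the ligand of CCR6 on Langerhans cell precursors and T cells, read 836, 1377 and 363 in vehicle skin, 323, 96.4 and 147 after DNFB and 1485, 3738 and 2172 after BAC. It was the only chemokine gene of the list that fell, and the vehicle arrays were widely spread (-2.06 ± 0.43, adjusted p = 0.00468); without the intensity trend it did not pass (adjusted p = 0.0579).

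The feedback inhibitors of NF-kB, the factor that drives many cytokine genes, were read next. Tnfaip3 (Entrez gene 21929), the ubiquitin-editing inhibitor A20, read 1245, 882 and 720 in vehicle skin, 409, 512 and 399 after DNFB and 4697, 5095 and 4483 after BAC. It lay below the vehicle after DNFB and above it after BAC, without overlap, a difference between the compounds of -3.39 ± 0.16 (adjusted p = 2.27e-08). Nfkbia (Entrez gene 18035), IkB-alpha, showed the same order, with 10617, 9932 and 8762, then 6824, 6180 and 5951, and 16551, 17195 and 17960 after BAC (difference -1.45 ± 0.10, adjusted p = 5.24e-07). Of the 23 NF-kB subunits and inhibitors 5 rose and 3 fell after DNFB (median 0.03), against 15 and none after BAC, and 12 were lower after DNFB than after BAC. The 5 that rose were 3 without vehicle replicate 1, DNFB replicate 2 or DNFB replicate 3 and 2 without vehicle replicate 3, without the intensity trend, with median centring or with averaged probe sets. Nfkbiz, a nuclear IkB protein that supports Il6 transcription, read 926, 971 and 818 and then 2205, 2240 and 2316, and its DNFB and BAC arrays differed by -0.19 ± 0.10, which did not pass (adjusted p = 0.299). In the TNF superfamily 3 of 27 rose and 1 fell, with 1 higher with averaged probe sets and none lower without any 1 of vehicle replicates 1, 2 and 3, DNFB replicate 1 or DNFB replicate 3. Its receptor Tnfrsf12a, called Fn14, went from 1531, 1876 and 1285 to 5314, 3681 and 4762 (1.54 ± 0.15, adjusted p = 4.81e-06). Interferon-stimulated genes were near the share over all genes, with 2 of 32 higher (4 with quantile normalization, with centring over the tested genes or without the intensity trend), Isg20 (1.25 ± 0.17, adjusted p = 0.00012) and Rtp4 (0.95 ± 0.22, adjusted p = 0.00781), whose call ended when its probe sets were averaged (adjusted p = 0.51).

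The ligands of the EGF receptor, which drive keratinocyte growth and repair, did not move as 1 group. Ereg (Entrez gene 13874), epiregulin, read 2562, 2895 and 2581 in vehicle skin, 805, 579 and 710 after DNFB and 2193, 3319 and 2632 after BAC. The DNFB arrays stood alone (-1.93 ± 0.15 against BAC, adjusted p = 1.27e-06). Epgn, epigen, read 409, 772 and 423, then 317, 207 and 257, and 1859, 3212 and 2117 after BAC. It fell by 0.95 ± 0.24 against the vehicle (adjusted p = 0.0133), but not past the threshold without vehicle replicate 2 or DNFB replicate 2 (adjusted p up to 0.0663), and differed from BAC by -3.11 ± 0.24 (adjusted p = 1.27e-06). Hbegf, the heparin-binding ligand, rose instead, from 1269, 1117 and 763 to 2747, 2070 and 2797 (1.28 ± 0.16, adjusted p = 7.96e-05). Of the 31 growth factor genes 5 rose and 7 fell; 3 rose without vehicle replicate 1, vehicle replicate 3, DNFB replicate 2 or the filter, or with median centring or averaged probe sets, and 4 fell without DNFB replicate 2 or the intensity trend.

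Among hyaluronan and matrix protease genes, which remodel the dermis, 14 of 31 rose and none fell (median 0.38), with 2 lower without vehicle replicate 1. Timp1, an inhibitor of metalloproteinases, read 445, 561 and 343 in vehicle skin and 2092, 1308 and 1215 after DNFB (1.72 ± 0.21, adjusted p = 5.27e-05). Plaur, the urokinase receptor, read 367, 371 and 283 and then 1705, 782 and 1048 (1.68 ± 0.22, adjusted p = 8.81e-05). DNFB replicate 1 was the highest in both, and neither group overlapped. The proteoglycan-cleaving proteases Adamts9 and Adamts4 rose by 1.71 ± 0.14 (adjusted p = 8.55e-07) and 1.87 ± 0.19 (adjusted p = 6.96e-06), and Adamts4 differed from BAC by -1.91 ± 0.19 (adjusted p = 1.29e-05). In the complement and coagulation list 8 of 31 rose and 1 fell, with 5 higher without vehicle replicate 1, vehicle replicate 3, DNFB replicate 3, the intensity trend or the filter, or with median centring or averaged probe sets. Procr (Entrez gene 19124), the endothelial protein C receptor whose promoter is shown above, read 306, 349 and 247 in vehicle skin, 2606, 1746 and 1881 after DNFB and 733, 768 and 657 after BAC. All 3 groups were apart, and DNFB was above BAC by 1.49 ± 0.16 (adjusted p = 2.81e-05). Of 19 neuropeptide and vasoactive peptide genes 2 rose and 2 fell (10.5% each, median 0.03), beside 6.76% and 7.08% over all tested genes. Calcb, a calcitonin gene-related peptide, read 741, 1063 and 680 and then 292, 290 and 313 (-1.40 ± 0.16, adjusted p = 2.8e-05). Edn2, endothelin 2, fell by 1.60 ± 0.22 (adjusted p = 0.000131). Nts, which encodes neurotensin, read 111, 73.8 and 96.9 in vehicle skin, 820, 1067 and 692 after DNFB and 723, 632 and 942 after BAC. The DNFB and BAC arrays of Nts overlapped, and their difference of 0.16 ± 0.19 did not pass (adjusted p = 0.671).

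Of 35 cornified envelope genes, whose proteins are cross-linked into the outer layer of the epidermis, 24 fell and none rose (median -0.99). Of 23 kallikreins and other regulators of desquamation 15 fell and none rose (median -0.73). Of 19 epidermal keratins 11 fell (median -0.62), of 13 desmosome genes 9 (median -0.57), of 35 ceramide and lipid processing genes 20 (median -0.55) and of 29 differentiation transcription factors 13, with Cebpb alone higher (median -0.51). The lipid count was 13 without vehicle replicate 3, 12 without DNFB replicate 2 and 9 without the intensity trend, where 6 keratins fell. Without vehicle replicate 2, 2 keratins were higher. The medians of these 6 lists stayed below 0 in each alternative that was run, median centring included.

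Lce1h, a late cornified envelope protein, read 5979, 7716 and 6712 in vehicle skin, 2369, 2053 and 2648 after DNFB and 3921, 4536 and 4934 after BAC. The 3 groups were apart, with DNFB lowest (-1.52 ± 0.13 against the vehicle, adjusted p = 1.08e-06, and -0.92 ± 0.13 against BAC, adjusted p = 0.000291). Probe sets of the Lce1 family may bind RNA of several members, so their number is uncertain. Of the 35 cornified envelope genes 17 were lower after DNFB than after BAC and none higher. The other epidermal lists differed less. Lower than after BAC were 7 of 19 keratins, 6 of 29 differentiation factors, 5 of 35 lipid genes, 4 of 23 kallikreins and 1 of 13 desmosome genes, and none was higher. Against the vehicle, 19 cornified envelope, 10 kallikrein, 9 lipid, 7 differentiation factor, 6 desmosome and 5 keratin genes fell after BAC. Those that rose numbered 0, 1, 2, 3, 0 and 2 in that order. The keratins of activated epidermis, Krt6a and Krt17, which appear in wounds, also stood below the vehicle. Krt17 read 1071, 1074 and 1039 in vehicle skin, 422, 348 and 424 after DNFB and 1313, 1788 and 1061 after BAC (-1.38 ± 0.16, adjusted p = 2.68e-05). Krt6a read 1265, 1302 and 1212, then 864, 510 and 587, and 2369, 2656 and 1436 after BAC (-0.96 ± 0.20, adjusted p = 0.00491). DNFB and BAC did not overlap in either gene and differed by -1.73 ± 0.16 (adjusted p = 7e-06) and -1.68 ± 0.20 (adjusted p = 0.0001). The call for Krt17 ended with the mean of its probe sets and that for Krt6a without the intensity trend (adjusted p of 0.448 and 0.0533).

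Other genes of the layer gave the same direction with small spread. Trp63 (Entrez gene 22061), the p53 family factor that maintains epidermal stem cells, read 1600, 1705 and 1722 in vehicle skin, 730, 807 and 788 after DNFB and 1715, 1703 and 1415 after BAC. The DNFB arrays stood alone (-1.10 ± 0.11 against the vehicle, adjusted p = 7.14e-06, and -1.04 ± 0.11 against BAC, adjusted p = 2.68e-05). Gata3, a factor of epidermal and hair follicle fate, read 977, 762 and 1070 and then 219, 379 and 339, and was as low after BAC, at 346, 425 and 256 (difference -0.13 ± 0.21, adjusted p = 0.759). Elovl4, the elongase of the very long fatty acids of skin ceramides, read 7106, 6693 and 6923, then 2997, 2506 and 2337, and 6663, 6557 and 5488 after BAC. It too set the compounds apart (-1.25 ± 0.11, adjusted p = 5.87e-06). Spink5, an inhibitor of kallikreins that is mutated in Netherton syndrome, fell by 1.15 ± 0.16 (adjusted p = 0.000187), and Krt23 by 1.19 ± 0.11 (adjusted p = 4.86e-06). In the list of tight and gap junction genes 6 of 22 fell and 1 rose. The barrier proteins Ocln and Cldn4 fell by 1.03 ± 0.15 (adjusted p = 0.000259) and 1.0 ± 0.16 (adjusted p = 0.000535), and differed from BAC by -0.80 ± 0.15 and -1.19 ± 0.16 (adjusted p of 0.00437 and 0.000257). Gja1, the gap junction protein connexin 43, was the member that rose, from 1641, 1807 and 1374 to 5635, 4436 and 4832 (1.62 ± 0.12, adjusted p = 4.15e-07).

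The largest fall among the named genes was that of Rnase2b (Entrez gene 54159), a secreted ribonuclease. It read 1415, 1225 and 1536 in vehicle skin, 297, 232 and 369 after DNFB and 1514, 1328 and 1079 after BAC. Only the DNFB arrays were low (-2.17 ± 0.16 against the vehicle, adjusted p = 5.04e-07, and -2.08 ± 0.16 against BAC, adjusted p = 1.56e-06). Cyp1a1, the main target of the aryl hydrocarbon receptor, read 550, 484 and 355 and then 198, 130 and 149 (-1.45 ± 0.21, adjusted p = 0.000275). Its list of 25 cytochrome P450 and receptor genes had 2 higher and 3 lower.

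**Figure D3:**
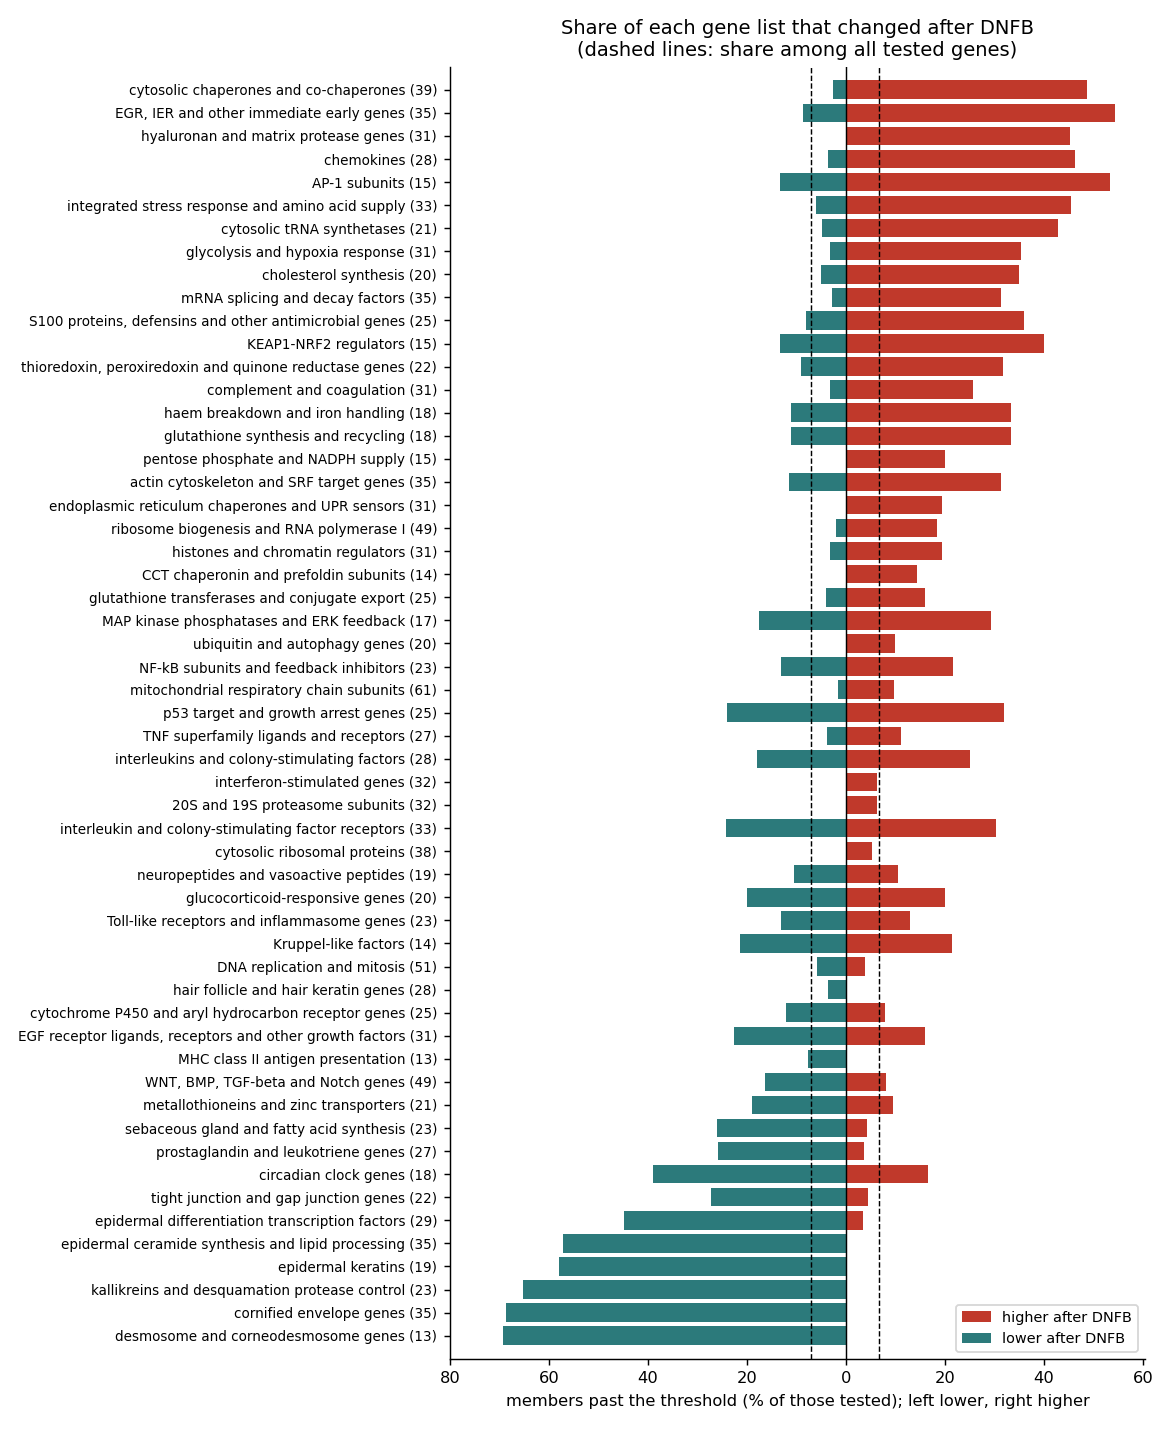
Percentage of tested members of each pathway list (number tested in brackets) that were higher (red, right) or lower (teal, left) after DNFB at a limma adjusted p under 0.05; dashed lines mark all tested genes, 6.76% higher and 7.08% lower. Cytosolic chaperones (19 of 39) and immediate early genes (19 of 35) reach far to the right, and cornified envelope genes (24 of 35) and kallikreins (15 of 23) far to the left.

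Other lists covered the general machinery of the cell. Of 38 cytosolic ribosomal proteins 2 rose and none fell (none rose without vehicle replicate 1, vehicle replicate 3, DNFB replicate 1 or DNFB replicate 2, and 6 without vehicle replicate 2), of 61 respiratory chain subunits 6 rose and 1 fell, and of 51 genes of DNA replication and mitosis 2 rose and 3 fell. The ribosomal (5.26% higher) and replication shares (3.92% higher, 5.88% lower) were below those over all tested genes, 6.76% and 7.08%. Respiratory subunits that rose numbered 0 without vehicle replicate 1, 1 without vehicle replicate 3, 2 without DNFB replicate 2 or DNFB replicate 3 and 12 without vehicle replicate 2. None rose with median centring, averaged probe sets or no intensity trend. Cdt1, a replication licensing factor, read 232, 260 and 230 in vehicle skin, 591, 397 and 526 after DNFB and 182, 198 and 196 after BAC. Only the DNFB arrays were high (1.01 ± 0.16, adjusted p = 0.000545), and the call ended when its probe sets were averaged (adjusted p = 0.0543). Fen1 of the same list went the other way. It read 454, 615 and 574 in vehicle skin, 239, 80.7 and 65.6 after DNFB and 310, 84.4 and 332 after BAC (-2.15 ± 0.43, adjusted p = 0.00317). Ribosome biogenesis had 9 of 49 members higher and 1 lower, with 5 higher without vehicle replicate 3, DNFB replicate 1 or the intensity trend or with median centring; Nolc1, a nucleolar protein, rose by 0.96 ± 0.14 (adjusted p = 0.000267). Among splicing and decay factors 11 of 35 rose and 1 fell, with 6 higher without vehicle replicate 1, vehicle replicate 3 or DNFB replicate 2 and 7 without DNFB replicate 1. It was 6 with median centring or without the intensity trend and 7 with averaged probe sets. The splicing regulator Tra2a read 333, 421 and 413 and then 1502, 1122 and 1198, without overlap (1.67 ± 0.15, adjusted p = 2.49e-06), although only 1 of its 4 further tested probe sets passed. Zfp36, which destabilises cytokine mRNA, rose by 1.82 ± 0.15 (adjusted p = 1.37e-06). Glycolysis and hypoxia genes had 11 of 31 higher and 1 lower, with 7 higher without DNFB replicate 3 or the intensity trend and 6 with median centring; the hexokinase Hk2 rose by 0.98 ± 0.14 (adjusted p = 0.000179).

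Markers of the cell types in ear skin were read beside these lists. Of 12 keratinocyte markers 11 were tested, and 7 fell and none rose (median -0.42), with 3 lower without DNFB replicate 2, 4 with median centring and 2 without the intensity trend. These markers include keratins, cornified envelope and desmosome genes and Trp63, the kinds of genes in the epidermal lists, so they are not a separate measure. Their summed signal was 90408 to 100430 in the vehicle arrays and 77319 to 89440 in the DNFB arrays. The abundant marker Krt14, read here although it is outside the naming rule, did not pass, with 9807 ± 510 in vehicle skin and 8479 ± 880 after DNFB (SD, n = 3; log2 change -0.21), and its part beside the falls of the epidermal lists was not tested. Of 19 neutrophil markers 14 were tested, and 10 rose and none fell (median 1.28). Their summed signal was 5865 to 11707 in vehicle skin, the highest in replicate 2, and 18837 to 30516 after DNFB. S100a8, a calprotectin subunit, read 487, 2565 and 464 in vehicle skin and 4505, 5827 and 9429 after DNFB, and its change of 2.88 was 3.68 without vehicle replicate 2. Clec4d, a lectin receptor of neutrophils and monocytes, read 117, 222 and 138 and then 808, 575 and 1001 (2.22 ± 0.22, adjusted p = 7.14e-06). It did not overlap the vehicle and overlapped the BAC arrays at 755, 942 and 1049.

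Of 15 tested Langerhans and dendritic cell markers 3 fell and none rose (median -0.04). Cd83 (Entrez gene 12522), a protein of maturing dendritic cells and other activated cells, read 430, 400 and 270 in vehicle skin, 198, 184 and 192 after DNFB and 1410, 1361 and 1173 after BAC. It was below the vehicle after DNFB and above it after BAC, and the compounds differed by -2.68 ± 0.16 (adjusted p = 1.95e-07). Cd207, langerin, read 489, 435 and 319, then 271, 164 and 198, and 1093, 839 and 683 after BAC, in the same order (difference -1.97 ± 0.21, adjusted p = 2.53e-05). Epcam, also an epithelial gene, fell by 0.84 ± 0.13 (adjusted p = 0.00056). Of 13 MHC class II presentation genes 1 was lower and none higher, Ifi30, a thiol reductase of antigen processing (-0.53 ± 0.11, adjusted p = 0.00291). That share of 7.69% was near the 7.08% over all tested genes.

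Of 12 tested mast cell markers 6 rose and none fell (median 0.52), but 2 rose without vehicle replicate 3 or DNFB replicate 2. The chymase Cma1 read 961, 985 and 1051 in vehicle skin, 1341, 2074 and 1678 after DNFB and 1082, 1028 and 1010 after BAC (0.73 ± 0.14, adjusted p = 0.00175, against the vehicle, and 0.68 ± 0.14, adjusted p = 0.00692, against BAC). Mcpt4, another mast cell protease, read 1375, 1272 and 1755 and then 2237, 2533 and 2141 (0.65 ± 0.13, adjusted p = 0.00305). In both, every DNFB array was above every vehicle array. Among 17 monocyte and macrophage markers 4 rose, and 2 without vehicle replicate 1, vehicle replicate 3, DNFB replicate 2, DNFB replicate 3 or the intensity trend, or with median centring, quantile normalization or averaged probe sets. Gzmb, granzyme B, read 25.2, 46.7 and 21.5 in vehicle skin, 91.5, 123 and 106 after DNFB and 327, 427 and 304 after BAC; 2 of its vehicle arrays were below the 40th percentile. Of the other 13 tested T and NK cell markers none rose and 2 fell, and neither fell without vehicle replicate 1, vehicle replicate 3 or DNFB replicate 3. None of 6 tested B cell markers and none of 9 melanocyte markers passed, and no eosinophil marker was above the filter.

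No listed marker of deeper tissue was called lower, while the number called higher differed between lists. Called higher were 3 of 9 smooth muscle, 3 of 8 adipocyte, 3 of 17 endothelial and 2 of 8 Schwann cell markers. Their medians were 0.29, 0.33, 0.38 and 0.22. With 1 vehicle or DNFB array left out, as few as 1, 0, 2 and 0 of them rose. Of 7 tested sebocyte markers 4 fell and none rose (median -0.8), and as few as 2 fell with 1 such array left out. Of 11 cartilage markers 1 was higher and none lower (median -0.03), with none higher without vehicle replicate 1, vehicle replicate 3, DNFB replicate 2 or DNFB replicate 3 and 3 without DNFB replicate 1. Among 24 genes of skeletal muscle 10 rose and none was lower (median 0.45), with 1 higher without vehicle replicate 1 or DNFB replicate 2, 3 without DNFB replicate 3 and 5 without vehicle replicate 2. None rose without the intensity trend, 3 with averaged probe sets, 4 with quantile normalization and 5 with median centring or without the filter. Their summed signal was 56029 to 73734 in vehicle skin, 79750 to 100442 after DNFB and 64405 to 97416 after BAC. Fibroblast and matrix markers rose in 5 of 16 cases (median 0.35), 3 without DNFB replicate 2 and 2 with median centring, quantile normalization or no intensity trend, and their summed signal was 83559 to 94977 and 106293 to 119214. Mfap5, a microfibril protein, read 1032, 957 and 948 and then 1772, 1835 and 1471 (0.77 ± 0.11, adjusted p = 0.000196). The muscle-related gene Xirp1, an actin-binding protein of muscle, was among the 15 largest rises, with 193, 132 and 293 in vehicle skin and 1181, 1833 and 1499 after DNFB (2.82 ± 0.29, adjusted p = 1.11e-05). The share of dermis and muscle in each sample was not measured, and its part in the falls of the epidermal lists and in the rises of the dermal ones was not tested.

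**Figure D4:**
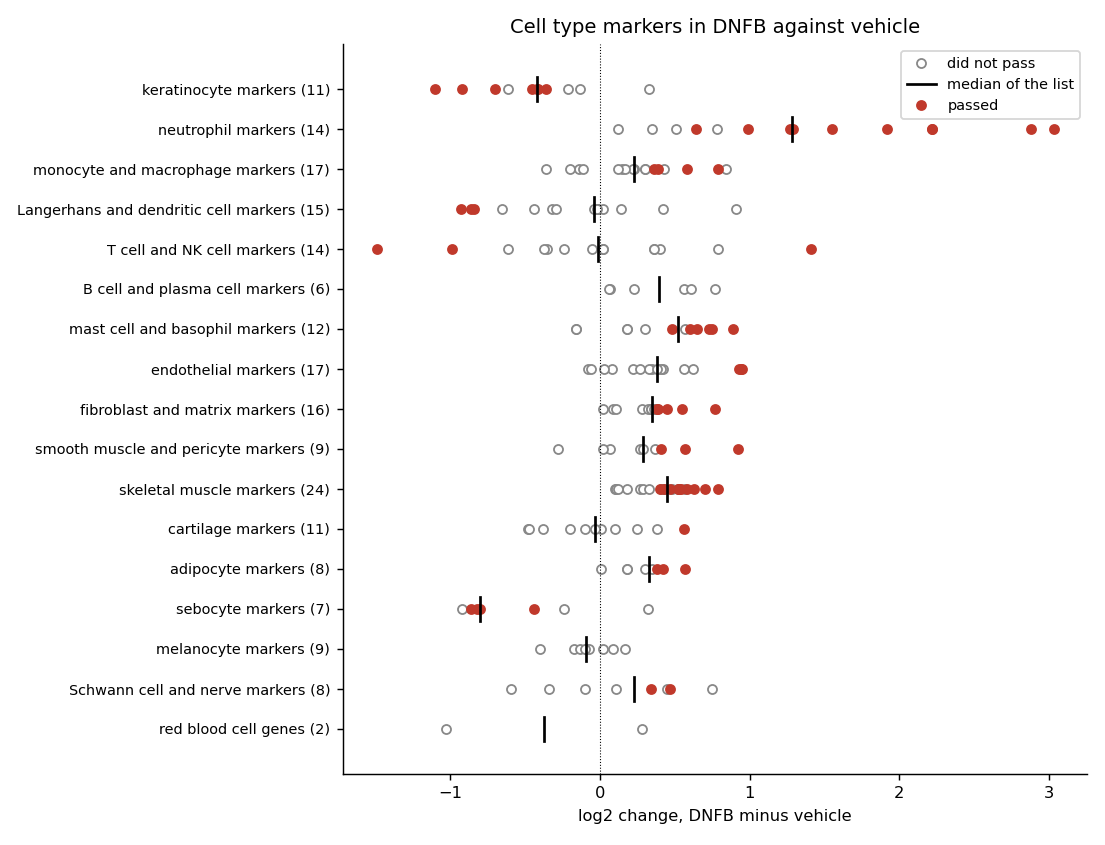
Log2 change, DNFB minus vehicle, of each tested marker of 17 cell types (number tested in brackets); red points passed limma at an adjusted p under 0.05, open points did not, and the black bar is the list's median. The neutrophil median is 1.28, the keratinocyte median -0.42 and the skeletal muscle median 0.45.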

How the data were processed

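RNA of ear skin was hybridised to Affymetrix arrays, 3 per treatment, and the deposited MAS5 intensities were made by the authors with Affymetrix Expression Console, per the submitters' processing notes; no versions are given, and detection calls were not used. Of 45101 probe sets 64 were controls, 34945 had 1 gene symbol, 932 several and 9160 none listed, and 34741 matched RefSeq by gene identifier. Each of 18193 genes was read by its probe set with the highest mean. Genes above the array's 40th percentile in at least 3 of 9 arrays were tested, 14122 in all.

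Values were log2(intensity + 16), fitted with limma 3.58.1 (R 4.3.3) to all 9 arrays with a mean per treatment, an intensity trend and Benjamini-Hochberg adjustment; the fit was tested on simulated data. Arrays correlated at 0.935 to 0.966 within treatments and 0.925 to 0.948 between them, and no 2 arrays were identical. The number of arrays limits the precision. Same-numbered DNFB and vehicle arrays did not deviate together (r of -0.076, 0.01 and -0.027), so numbers were not taken as pairs.

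Named genes are the 15 largest rises and 15 largest falls whose arrays do not overlap and whose higher mean lies above the median gene, up to 4 called members of each list with the largest change (or the 1 with the smallest p), some cytokine, redox and epidermal genes whatever their values, and the 6 largest differences from BAC in each direction. Members and lists were chosen with earlier results of these data known. Alternatives were other pseudocounts, filters, scalings, probe set rules and variance models, the 2 groups alone, a replicate block and each array left out; centring over the tested genes was added after seeing the data.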

Additional observations from a re-analysis of the deposited data

How the results depend on the processing

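The count of genes changed after DNFB was 1202 without the intensity trend and 1249 to 1929 with 1 array left out. Higher genes numbered 621 with each array centred on its median, 604 with the mean of the probe sets, 601 without the trend and 621 to 939 with 1 array left out; lower genes numbered 601 without the trend and 628 to 990 with 1 array left out. DNFB against BAC gave 402 without the trend and 513 to 999 with 1 array left out. With the replicate number as a block 1874 genes changed (896 higher, 978 lower). The labels do not say whether the numbers pair the arrays, and 3 arrays a group are too few to settle it. With the mean of the probe sets the direction turned for Slc39a14 (-0.006), Shmt1 (-0.23), Rpl41 (-0.0002), Rgs5 (-0.048) and Fabp4 (-0.16), and the cause was not tested. Of 5007 values for named genes under the alternatives, 4542 kept direction and call, 460 kept direction and lost the call and 5 turned. Of the 251 named genes 163 kept both in every alternative. With 3 arrays a group and no detection calls, genes near the 40th percentile signal (46.2 to 60.7) are the least certain.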
